A study of Mus musculus with 7 samples.

Results

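The BCL-2 family, the caspases, the inhibitor of apoptosis proteins (IAPs) and the adaptors and kinases that work with them were examined in cultured ILC2s, the group 2 innate lymphoid cells, which carry no antigen receptor and secrete IL-5 and IL-13. The group holds 37 genes taken by name. Of these, 36 had a probe matched through its accession and passed the filter on dim signal, out of 25347 genes tested on the array. The exception was Bcl2a1a, for which no probe was matched and which is not analysed here. The knockout ILC2s came from mice homozygous for Gfi1GFP/GFP, an allele in which a GFP cassette sits in the mouse's own Gfi1 locus, abolishes the function of this transcriptional repressor and reports its promoter's activity. The wild-type ILC2s came from Gfi1+/+ mice. All mice of both groups were given IL-25 once a day for 4 days, and the lineage-negative cells that stained for c-Kit, CD127, ICOS and Sca-1 were sorted on day 5 from the mesenteric lymph nodes. Both groups were then cultured for 6 days with IL-2 at 50 ng/ml, IL-7 at 10 ng/ml and IL-25 at 50 ng/ml, and RNA was taken at the end of that culture. Each of the 3 knockout samples pooled 6 mice and each of the 4 wild-type samples pooled 3 mice. The allele was present in all cells of the knockout mice, not in ILC2s alone, and the ages of the mice are not given in the sources used here. Every array carried 1 ILC2 sample in the red channel and the same commercial mouse reference RNA in the green channel.

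Cells die by apoptosis along a mitochondrial or a death receptor route. In the first, BH3-only proteins antagonise the pro-survival BCL-2 proteins or activate BAX and BAK, which open pores in the outer mitochondrial membrane, and the released cytochrome c assembles with APAF1 to switch on caspase-9. In the other, the adaptors TRADD and FADD recruit caspase-8, while the IAPs and cFLIP hold caspases in check. A further set of caspases, among them caspase-1, serves inflammasomes and not apoptosis. Lymphocytes are known to depend on cytokines such as IL-7 for the expression of pro-survival members, and in T cells GFI1 is known as a repressor of Bax.

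The Gfi1 probe was higher on the knockout arrays (4.28 ± 0.02, SD, n = 3, in knockout cells and 2.02 ± 0.23, SD, n = 4, in wild-type cells; limma adjusted p = 1.63e-05). In this allele the promoter is left active, so the probe checks no label, and the directions given here rest on the labels. All 13 ILC2 markers examined lay well above background on every array, and their summed sample-channel signal, normalized and in the scanner's linear units, ran from 497771 to 643975 in knockout cells and from 748658 to 1034845 in wild-type cells. Of these 13, Il17rb was higher and Gata3, Il1rl1, Ly6a and Areg were lower in knockout cells. Of 4 natural killer cell markers Ncr1 was above background on no array, and the sum of all 4 ran from 3663 to 6515 in knockout cells and from 1728 to 2075 in wild-type cells, with Nkg7 called higher. The sum of 7 T cell markers ran from 8404 to 17616 in knockout cells and from 7585 to 13502 in wild-type cells, with Lck called higher. The sum of 5 B cell markers ran from 13767 to 16754 in knockout cells and from 15924 to 19470 in wild-type cells, with no call. Among 5 mast cell and basophil markers Fcer1a and Ms4a2 were above background on no array and Cpa3 was called lower, with sums from 484 to 527 in knockout cells and from 478 to 689 in wild-type cells. Of the red blood cell genes Hba-a1 was called lower, with sums from 457 to 519 in knockout cells and from 677 to 1048 in wild-type cells. The part of these shifts in the results on cell death genes was not tested. Between 67.4% and 80.9% of probes were well above background on an array. The arrays lie on 3 slides: slide 1 holds knockout array 1 and wild-type array 4, slide 2 holds knockout arrays 2 and 3 and wild-type array 1, and slide 3 holds wild-type arrays 2 and 3.

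Of the 36 measured members, 3 were called, and all 3 were higher in knockout cells. Casp1, which encodes the protease that matures IL-1β and IL-18, was 1.63-fold higher in knockout ILC2s, Pmaip1, which encodes the BH3-only protein NOXA, was 1.45-fold higher, and Bid, which encodes the BH3-only protein that caspase-8 cleaves, was 1.33-fold higher. No member was called lower, and none of the 10 measured pro-survival members was called in either direction. By the unadjusted limma p under 0.05, 4 members were lower and 2 pro-survival members passed, Bcl2l2 and Bcl2a1d. All values are log2 ratios of the ILC2 sample over the reference RNA, all differences are knockout minus wild type, and a gene is called where the limma p-value, adjusted by Benjamini and Hochberg's method over all 25347 genes, lies under 0.05. The 3 calls are 8.33% of the 36 members, near the 7.53% of all tested genes that were called. Calls in the upward direction took 3.29% of all tested genes and calls in the downward direction 4.24%. In bulk RNA, fewer cells of a type and less RNA per cell cannot be told apart. The plot of differences by role gives all 36 members.

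**Figure D1:**
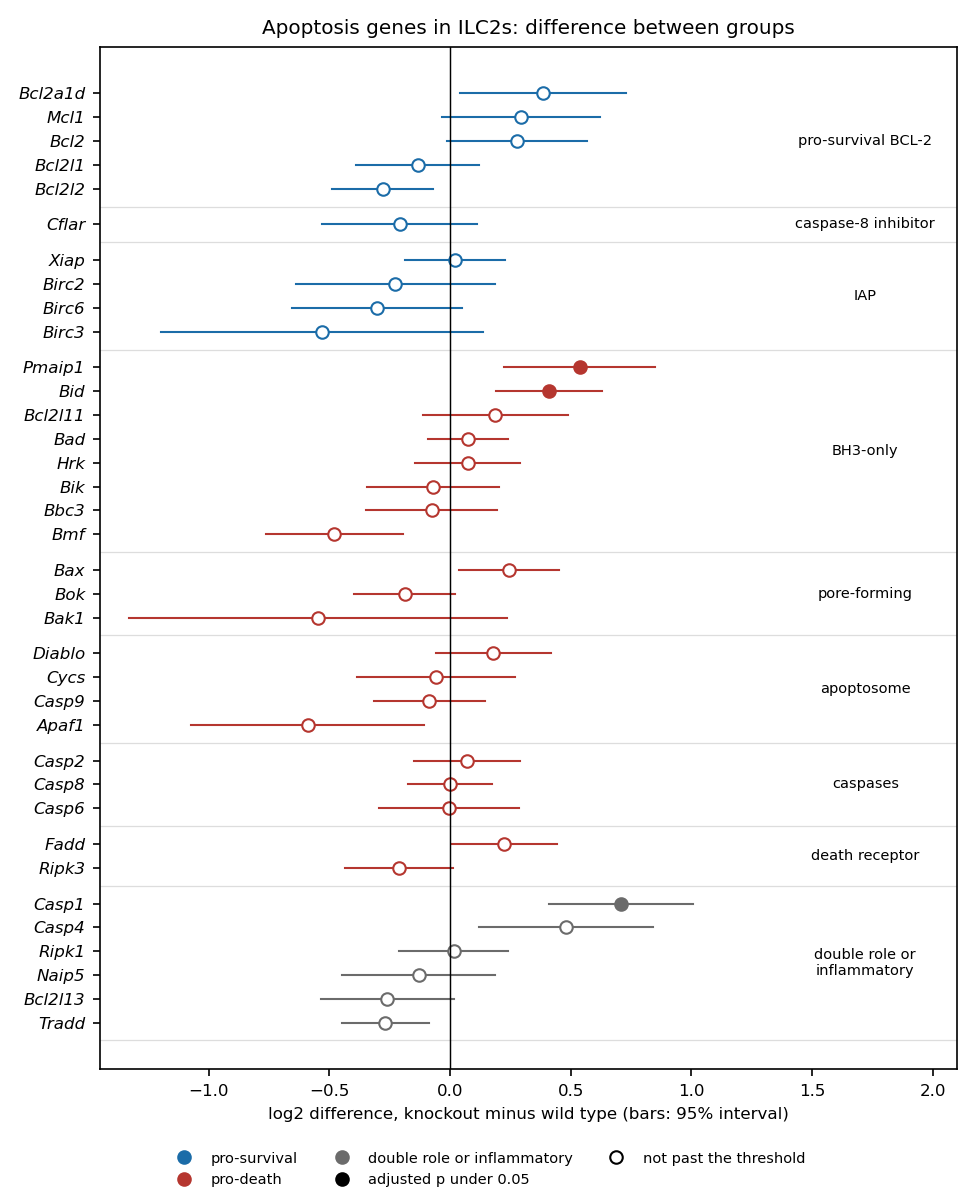
Log2 difference between knockout and wild-type ILC2s (x axis) for the 36 measured members, grouped by role, with bars for the 95% interval from the limma fit; n = 3 knockout and 4 wild-type arrays, and filled points mark an adjusted p under 0.05. The 3 filled points are Casp1, Pmaip1 and Bid, all on the side higher in knockout, and no pro-survival member is filled.

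The pro-survival BCL-2 proteins bind and restrain BH3-only and pore-forming members. Bcl2, the founding member, read 1.42, 1.23 and 1.60 on the knockout arrays, against 1.33, 1.24, 0.86 and 1.13 on the wild-type arrays. The groups overlapped, and the difference of 0.28 was not called (95% interval -0.01 to 0.57; adjusted p = 0.283). Mcl1, whose short-lived product lymphocytes need for survival, read 1.04, 1.30 and 1.66 on the knockout arrays, against 0.94, 0.89, 1.12 and 1.21 on the wild-type arrays. Only knockout arrays 2 and 3 lay above all wild-type arrays, and the difference was 0.29 (interval -0.03 to 0.62; adjusted p = 0.316). A second Mcl1 probe gave a difference of 0.01. Bcl2l1, which encodes BCL-XL, read -0.22, -0.06 and -0.31 on the knockout arrays, against 0.08, 0.09, -0.26 and -0.17 on the wild-type arrays, again with overlap (difference -0.13, interval -0.39 to 0.12; adjusted p = 0.604). Bcl2l2, which encodes BCL-W, was the pro-survival member with the lowest adjusted p, 0.118. It read -0.05, -0.06 and 0.09 on the knockout arrays, against 0.10, 0.36, 0.27 and 0.36 on the wild-type arrays. These groups did not overlap, although knockout array 3 and wild-type array 1 nearly met, and the difference of -0.28 was matched by -0.30 on a second probe.

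A1 is the fifth pro-survival protein of this family and in the mouse is encoded by several nearly identical genes. Of the 2 among the members, only Bcl2a1d had a probe. The bases just before the start of each gene are given here because they show how alike the copies are; they are the last 100 bases before the start in the RefSeq promoter windows of build GRCm38.p6, 5′ to 3′ on the gene's strand, and capitals mark the bases that differ between them. The Bcl2a1a window is chr9:88956820-88956919 on the plus strand and the Bcl2a1d window is chr9:88731851-88731950 on the minus strand.
Bcl2a1a: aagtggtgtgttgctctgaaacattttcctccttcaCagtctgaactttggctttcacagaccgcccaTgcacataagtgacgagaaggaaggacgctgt
Bcl2a1d: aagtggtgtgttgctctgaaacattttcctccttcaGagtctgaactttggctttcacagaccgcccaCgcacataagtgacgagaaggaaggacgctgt
Over the full 250 bases before the starts, 95.2% of aligned positions were identical, with 6 mismatches and 6 gap positions. Whether the Bcl2a1d probe also reads the other A1 genes was not tested, so its values are uncertain as to the copy. It read 2.43, 3.07 and 2.76 on the knockout arrays, against 2.47, 2.15, 2.31 and 2.54 on the wild-type arrays. Knockout arrays 2 and 3 stood above all wild-type arrays and knockout array 1 among them. The difference of 0.39 (interval 0.04 to 0.73) was the largest of the pro-survival members in the upward direction and was not called (adjusted p = 0.193). Without knockout array 1 it was 0.55 with an adjusted p of 0.0487.

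The IAPs and cFLIP act further down, on caspases and their platforms. Xiap, whose product inhibits caspases directly, read 0.59, 0.42 and 0.49 on the knockout arrays, against 0.50, 0.30, 0.54 and 0.58 on the wild-type arrays. The arrays were intermingled, and the difference was 0.02 (interval -0.19 to 0.23; adjusted p = 0.938). Birc3, which encodes the NF-κB-induced ubiquitin ligase cIAP2, read 3.40, 2.13 and 3.06 on the knockout arrays, against 3.17, 2.99, 3.86 and 3.55 on the wild-type arrays. Knockout array 2 was far below the rest, and the difference was -0.53 with a wide interval, -1.20 to 0.14 (adjusted p = 0.387). Without knockout array 2 the difference was -0.16. Birc2, which encodes the related ligase cIAP1 and is the direct neighbour of Birc3 on chromosome 9, had its lowest array and its highest array in the same places, knockout array 2 at 1.07 and wild-type array 3 at 1.92. Its difference was -0.23 (adjusted p = 0.583). Birc6, which encodes a very large IAP with ubiquitin-conjugating activity, had a difference of -0.30 (adjusted p = 0.34). Cflar, which encodes cFLIP, the catalytically inactive relative that holds back caspase-8, read 1.37, 0.92 and 0.73 on the knockout arrays, against 1.27, 1.32, 1.102 and 1.16 on the wild-type arrays. Knockout array 1 lay above all wild-type arrays and the other knockout arrays lay below them, and the difference of -0.21 was not called (adjusted p = 0.5). The other Cflar probes gave differences of -0.22 and -0.02.

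**Figure D2:**
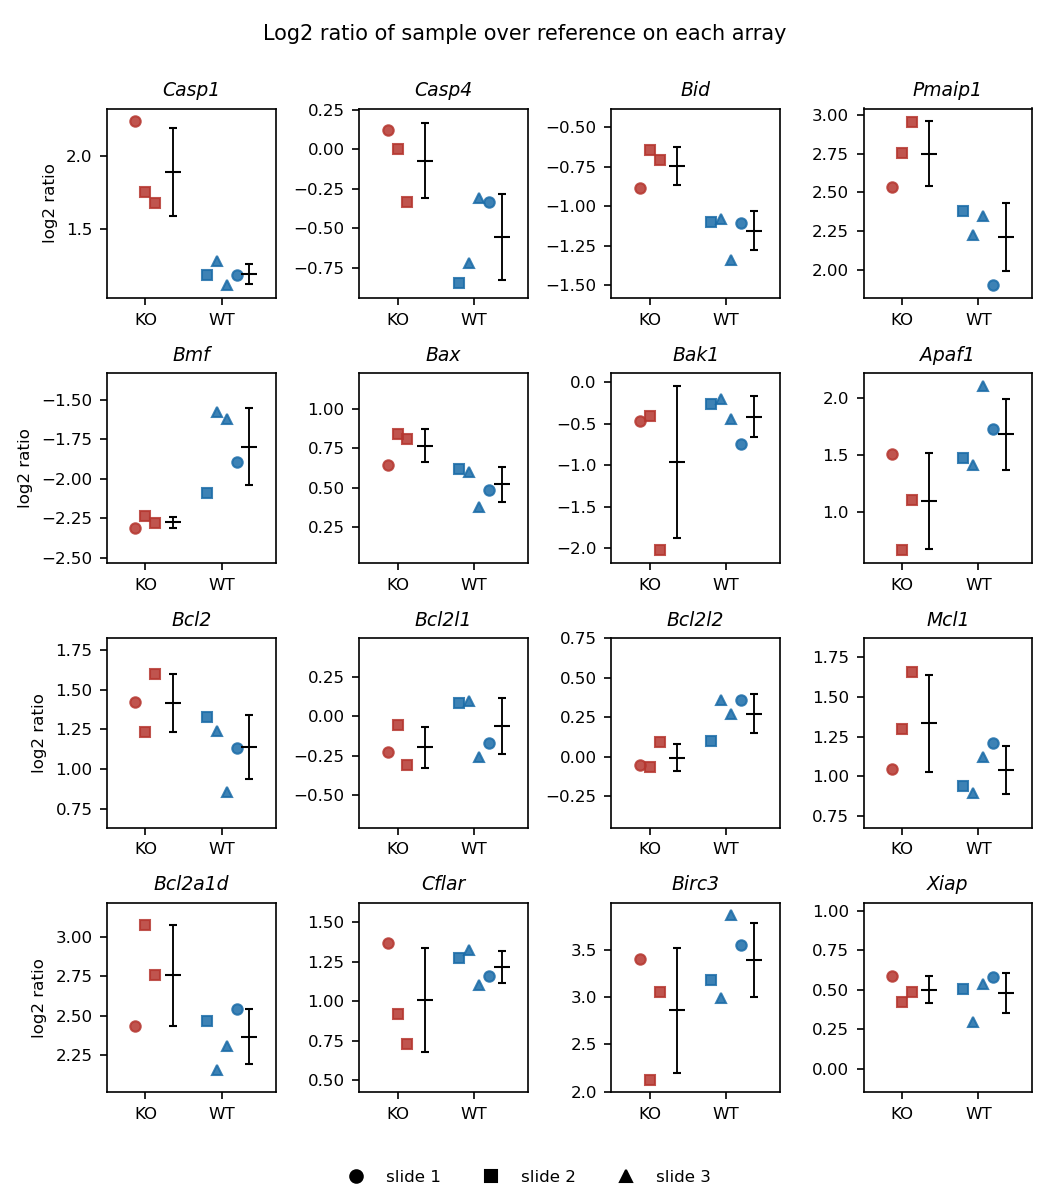
Log2 ratio of ILC2 sample over reference (y axis) on each of the 3 knockout (KO) and 4 wild-type (WT) arrays for 16 members, with marker shape for the slide and black bars for the mean ± SD; each panel has its own range, and the axes do not start at 0. The knockout and wild-type points are apart for Casp1, Bid, Pmaip1, Bmf, Bax and Bcl2l2, and Bak1 shows the single low knockout point at -2.02.

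BH3-only proteins start the mitochondrial route, and 2 of the 8 members with this role were called, both higher in knockout cells, where 3.29% of all tested genes were called higher. Pmaip1 encodes NOXA, which binds MCL1 and A1 and is a target of p53. It read 2.54, 2.76 and 2.96 on the knockout arrays, against 2.38, 2.23, 2.35 and 1.90 on the wild-type arrays. All 3 knockout arrays lay above all 4 wild-type arrays, and the lowest of all was wild-type array 4. Pmaip1 averaged 2.75 ± 0.21 in knockout cells and 2.21 ± 0.22 in wild-type cells (SD, n = 3 and 4), a difference of 0.54 ± 0.14 (SE; limma adjusted p = 0.049). In the sample channel alone the difference was 0.58 (adjusted p = 0.0458). The call rests close to the threshold: it was lost when any 1 array other than knockout array 1 was left out, with adjusted p from 0.058 to 0.137. Pmaip1 differed by 0.64 on slide 1 alone and by 0.48 on slide 2 alone, and the call was lost in the fit with a slide block (difference 0.55, adjusted p = 0.0788).

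Bid encodes the protein that links death receptors to mitochondria once caspase-8 has cleaved it. It read -0.88, -0.64 and -0.71 on the knockout arrays, against -1.095, -1.081, -1.339 and -1.104 on the wild-type arrays. The groups did not overlap, 3 of the 4 wild-type arrays lay close together, and wild-type array 3 lay apart from them, further from the knockout. Bid averaged -0.74 ± 0.12 in knockout cells and -1.15 ± 0.12 in wild-type cells (SD, n = 3 and 4), a difference of 0.41 ± 0.10 (SE; limma adjusted p = 0.0339), and the sample channel alone gave 0.39 (adjusted p = 0.0414). The call was likewise lost when any 1 array other than knockout array 1 was left out (adjusted p from 0.0604 to 0.118). Bid differed by 0.22 on slide 1 alone and by 0.42 on slide 2 alone. A slide block gave a Bid difference of 0.34 and an adjusted p of 0.337.

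Bmf encodes a BH3-only protein tethered to the cytoskeleton and was the member just outside the threshold, with an adjusted p of 0.0515. It read -2.31, -2.24 and -2.28 on the knockout arrays, against -2.09, -1.58, -1.62 and -1.89 on the wild-type arrays. The 3 knockout arrays lay close together and below all 4 wild-type arrays, and the difference of -0.48 had the opposite sign to those of Pmaip1 and Bid. On slide 1 alone Bmf differed by -0.42, on slide 2 alone by -0.17, and a slide block in the fit gave -0.27 (adjusted p = 0.392). Bcl2l11 encodes BIM, the BH3-only protein that cytokine withdrawal is known to induce in lymphocytes. It read -0.29, -0.21 and 0.28 on the knockout arrays, against -0.21, -0.24, -0.22 and -0.38 on the wild-type arrays. Knockout array 3 alone stood out, and the difference of 0.19 was not called (interval -0.11 to 0.49; adjusted p = 0.521). The remaining BH3-only members, Bbc3 (which encodes PUMA), Bad, Bik and Hrk, had differences between -0.08 and 0.08, with adjusted p of 0.662 or more. Hrk was the 1 measured member not above background on every array, with a signal above it on 3 of 3 knockout arrays and on 2 of 4 wild-type arrays. The Hrk sample channel averaged 6.75 in knockout cells and 6.54 in wild-type cells on the log2 scale. Bcl2l11 was little brighter, at 7.375 and 7.11, and its difference ran from -0.03 to 0.46 over the 24 alternatives, so its size is uncertain.

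BAX, BAK and BOK form the pores. Bax read 0.65, 0.84 and 0.81 on the knockout arrays, against 0.62, 0.60, 0.38 and 0.49 on the wild-type arrays. Every knockout array lay above every wild-type array, knockout array 1 by a narrow margin, and the difference of 0.24 was not called (interval 0.04 to 0.45; adjusted p = 0.172). Bak1 read -0.47, -0.40 and -2.02 on the knockout arrays, against -0.27, -0.21, -0.44 and -0.75 on the wild-type arrays. Knockout array 3 decided its mean: the difference was -0.55 ± 0.35 (SE; adjusted p = 0.459) with all arrays and -0.02 (adjusted p = 0.974) without knockout array 3, a comparison singled out after the value was seen. The raw median red signal of the Bak1 spot was 3748 on knockout array 3 and between 7143 and 9762 on the other arrays, while its green signal of 4177 lay inside their range of 3555 to 4979, and the spot carried no flag. Bok had a difference of -0.19 (adjusted p = 0.316). Its sample channel was about as dim as that of Hrk, 6.63 in knockout cells and 6.86 in wild-type cells, so this size is uncertain.

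The 4 members grouped around the apoptosome had no call, and 1 passed an unadjusted limma p under 0.05. Apaf1, which encodes the scaffold that cytochrome c opens, read 1.51, 0.66 and 1.11 on the knockout arrays, against 1.48, 1.41, 2.11 and 1.73 on the wild-type arrays. Knockout arrays 2 and 3 were below all wild-type arrays and knockout array 1 was not, and the difference of -0.59, the lowest of the members, had an interval of -1.07 to -0.11 (adjusted p = 0.156). It was -0.37 without knockout array 2 and -0.80 without knockout array 1 (adjusted p = 0.388 and 0.0526). The array order of Apaf1 had its lowest and highest points where Birc2 and Birc3 had theirs, on knockout array 2 and wild-type array 3. Cycs, Casp9 and Diablo, which encode cytochrome c, caspase-9 and an IAP antagonist, had differences of -0.06, -0.09 and 0.18, with adjusted p of 0.419 or more.

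The apoptotic caspases were close between the groups. Casp8, the initiator of the death receptor route, read 3.21, 3.37 and 3.25 on the knockout arrays, against 3.27, 3.34, 3.23 and 3.26 on the wild-type arrays. The arrays of both groups were intermingled, and the difference was 0.00 with an interval that reached 0.18 on the log2 scale on either side (adjusted p = 0.999). Casp2 and Casp6 had differences of 0.07 and 0.00. Of the death receptor adaptors and kinases, Fadd, which joins receptors to caspase-8, read 1.40, 1.52 and 1.61 on the knockout arrays, against 1.30, 1.39, 1.09 and 1.35 on the wild-type arrays. The groups were apart by a hair, with knockout array 1 just above wild-type array 2, and the difference was 0.23 (adjusted p = 0.234). Tradd, which couples TNF receptor 1 both to death and to NF-κB, read 0.47, 0.55 and 0.43 on the knockout arrays, against 0.78, 0.83, 0.76 and 0.64 on the wild-type arrays. The groups did not overlap there either, with the knockout arrays below, and the difference of -0.27 was not called (interval -0.45 to -0.09; adjusted p = 0.0835). Ripk1 and Ripk3, the kinases of necroptosis, had differences of 0.01 and -0.21 (adjusted p = 0.964 and 0.292).

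Casp1 had the largest difference of the members and the only one with a call that held when each array was left out in turn. It read 2.24, 1.76 and 1.68 on the knockout arrays, against 1.18, 1.28, 1.11 and 1.18 on the wild-type arrays. The 4 wild-type arrays lay close together, all 3 knockout arrays lay well above them, and knockout array 1 was the highest. Casp1 averaged 1.89 ± 0.31 in knockout cells and 1.19 ± 0.07 in wild-type cells (SD, n = 3 and 4), a difference of 0.71 ± 0.13 (SE; interval 0.41 to 1.005; limma adjusted p = 0.0116). The sample channel alone averaged 13.83 ± 0.27 in knockout cells and 13.14 ± 0.06 in wild-type cells on the log2 scale (SD, n = 3 and 4; adjusted p = 0.0158), and the reference channel differed by -0.02. Leaving out 1 array at a time gave differences from 0.53 to 0.82 and adjusted p up to 0.037. On slide 1 alone Casp1 differed by 1.06, on slide 2 alone by 0.54, and a slide block in the fit gave 0.76 with an adjusted p of 0.0557. The Casp1 call was thus lost by a small margin with the block although its size was not smaller. Caspase-1 is abundant in myeloid cells, and of 6 myeloid markers S100a8 was above background on no array, none was called, and their summed signal ran from 3189 to 3326 in knockout cells and from 2791 to 3246 in wild-type cells. Adgre1 among them had a difference of 0.63 (limma adjusted p = 0.144), and the other tested myeloid markers had differences between -0.05 and 0.07. The part of myeloid cells in the Casp1 difference was not tested.

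**Figure D3:**
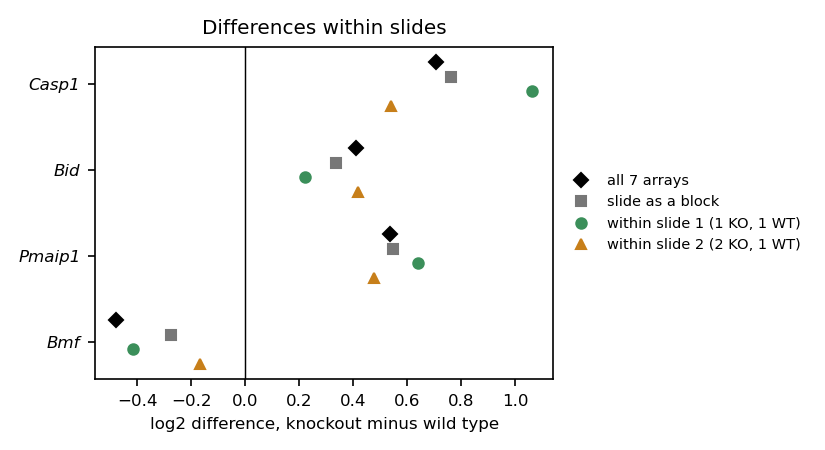
Log2 difference between knockout and wild-type ILC2s (x axis) for the 3 called members and Bmf, taken over all 7 arrays, under a slide block, and within each of the 2 slides that hold both groups (1 knockout and 1 wild-type array on slide 1; 2 knockout and 1 wild-type array on slide 2). Each gene keeps its sign in all 4 estimates, and the values within slides carry no error estimate.

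Casp1 lies next to Casp4 on chromosome 9, and Casp12 follows Casp4 in the RefSeq gene order. Casp4, which encodes the sensor of intracellular lipopolysaccharide also called caspase-11 in the mouse, read 0.12, 0.00 and -0.33 on the knockout arrays, against -0.85, -0.72, -0.31 and -0.34 on the wild-type arrays. Knockout arrays 1 and 2 lay above all wild-type arrays while knockout array 3 lay among wild-type arrays 3 and 4. The difference of 0.48 was not called (interval 0.12 to 0.84; adjusted p = 0.12), and a second Casp4 probe gave 0.47. Casp12, which is no member, had a difference of 0.28 with groups that did not overlap (adjusted p = 0.107), as in 18.3% of all tested genes. In the sample channel alone the Casp12 groups did overlap, with knockout array 1 at 6.94 and wild-type array 4 at 7.22 (limma adjusted p = 0.313). The promoter windows of the neighbouring pair are shown because Casp1 carries the largest difference and because GFI1 is known to bind DNA through a site with the core AATC; they are the 250 bases before each gene's start in RefSeq's GRCm38.p6 table, on the plus strand for both, at chr9:5298267-5298516 for Casp1 and chr9:5308599-5308848 for Casp4, with AATC or its reverse complement GATT in capitals.
Casp1: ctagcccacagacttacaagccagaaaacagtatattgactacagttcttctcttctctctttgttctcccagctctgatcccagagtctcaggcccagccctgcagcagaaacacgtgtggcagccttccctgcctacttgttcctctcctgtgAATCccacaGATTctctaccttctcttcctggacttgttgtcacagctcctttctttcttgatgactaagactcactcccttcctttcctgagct
Casp4: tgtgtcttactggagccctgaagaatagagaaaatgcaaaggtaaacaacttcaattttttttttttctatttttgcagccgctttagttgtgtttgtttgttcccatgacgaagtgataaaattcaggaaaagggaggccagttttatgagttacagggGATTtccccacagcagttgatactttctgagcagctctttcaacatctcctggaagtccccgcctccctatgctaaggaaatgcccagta
The Casp1 window held 2 matches and the Casp4 window 1. On both strands, AATC stood in 69% of all 32851 windows of this length in the table, and in at least 1 window of 23 of the 34 members that have one, so a match is common. The longer form AATCANNGC (reverse complement GCNNTGATT), which contains AATC, stood in 2.87% of all windows and in that of 1 member, Bcl2l11. These matches describe letters in a window and are not binding sites.

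The last members with an inflammatory or double role were Naip5, an inflammasome receptor for bacterial flagellin, and Bcl2l13, an outer mitochondrial membrane protein and the neighbour of Bid on chromosome 6. Naip5 had a difference of -0.13 (adjusted p = 0.708) and Bcl2l13 one of -0.26 (adjusted p = 0.291).

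Set out by side, the differences of pro-survival and of pro-death members ran in both directions. Casp1, Casp4, Naip5, Bcl2l13, Tradd and Ripk1, the 6 members with an inflammatory or double role, were counted on neither side. The 10 measured pro-survival members had a median difference of -0.17 and a range of -0.53 to 0.39, with 4 above 0 and 6 below. The 20 pro-death members had a median of -0.0018 and a range of -0.59 to 0.54, with 2 called and 9 above 0. The median over all tested genes was -0.01. Among the pro-survival members the BCL-2 proteins had a median of 0.28 (5 genes) and the IAPs one of -0.26 (4 genes), and none of these 9 genes was called (unadjusted p under 0.05 for 2 of the BCL-2 proteins and 0 of the IAPs). The median ratio of the pro-survival members was 1.40, 1.15 and 1.36 on the knockout arrays, against 1.30, 1.27, 1.11 and 1.19 on the wild-type arrays, and the groups overlapped. Over all 36 members, 31 had a difference under 0.5 in size (93% of all tested genes did), 16 were above 0 (46% of all genes were), and 8 had groups that did not overlap, or 22.2%, against 18.3% of all tested genes. Of these 8, 5 were higher in knockout cells (Casp1, Bid, Pmaip1, Bax and Fadd) and 3 were lower (Bmf, Bcl2l2 and Tradd), where 8.08% and 10.2% of all tested genes were apart in those directions. The 95% interval lay within a 2-fold change on either side for 32 of the 36 members; it reached past it for Casp1, Apaf1, Birc3 and Bak1. The standard error ran from 0.07 for Bad to 0.35 for Bak1, with a median of 0.12.

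**Figure D4:**
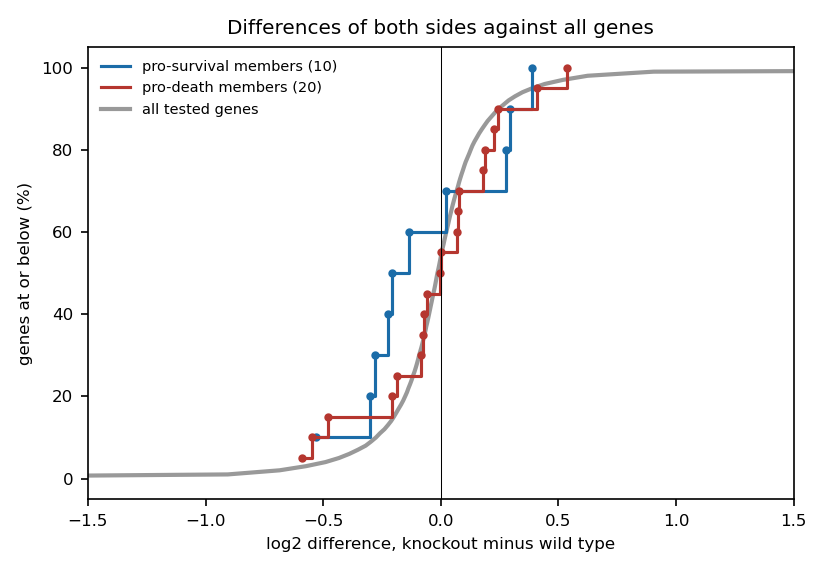
Share of genes at or below each log2 difference (y axis, percent) against the difference between knockout and wild-type ILC2s (x axis) for the 10 pro-survival members, the 20 pro-death members and all tested genes. The pro-death steps follow the curve of all genes near 0. The pro-survival steps lie to the left of that curve over the lower part, with a median of -0.17, and to its right at Bcl2 and Mcl1 (0.28 and 0.29).

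Under a slide block in limma, none of the 36 members was called, where 1.89% of all tested genes were called, and 5 of the 36, or 13.9%, passed an unadjusted p under 0.05, against 11.3% of all tested genes. In the sample channel alone the same 3 members were called, where 6.55% of all tested genes were. At an unadjusted p under 0.05, 11 of the 36 members passed, or 30.6%, against 19.5% of all tested genes. More than 1 probe was tested for 8 members, and the probes differed in sign for 0 of them.

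Outside the 37 members, 60 further genes of the cell death machinery were listed, and 58 of them could be tested. Of these, 6 were called higher and 4 lower, or 17.2% in all, where 7.53% of all tested genes were called. This list was chosen with earlier results of these data known, so the 2 shares cannot be read as an enrichment. Bcl2a1b, a further A1 copy, had no matched probe. The largest fall was in Tnfsf10, which encodes the death receptor ligand TRAIL. It read 5.15, 3.97 and 4.90 on the knockout arrays, against 6.07, 6.07, 6.32 and 6.16 on the wild-type arrays. The 4 wild-type arrays lay close together, and all knockout arrays lay below them, array 2 the furthest. The ratio was 2.79-fold lower in knockout cells (difference -1.48, adjusted p = 0.00562), with -1.01 on slide 1 alone and -1.63 on slide 2 alone. Bnip3 and Bnip3l, which encode BH3-containing receptors that mark mitochondria for autophagy, fell by 0.996 and 0.842 on the log2 scale (adjusted p = 0.00288 and 0.0024). Bnip3 read -0.26, -0.61 and -0.74 on the knockout arrays, against 0.39, 0.72, 0.45 and 0.27 on the wild-type arrays, and all 3 of its probes were called. In the sample channel alone Bnip3 differed by -0.76 and was not called (adjusted p = 0.0837). One of 4 Bnip3l probes, with a difference of -0.48, missed the threshold (limma p adjusted over all probes, 0.0656). Bag3, which encodes a co-chaperone of HSP70, fell by 0.61 (adjusted p = 0.0124), and its call was lost without knockout array 2 (adjusted p = 0.0513).

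Dapk1, which encodes a calmodulin-dependent kinase linked to cell death, rose the most of the 58 tested genes. It read 0.82, 1.09 and 0.996 on the knockout arrays, against -0.15, -0.23, -0.21 and 0.20 on the wild-type arrays. The groups lay far apart, with a 2.09-fold higher ratio in knockout cells (difference 1.07, adjusted p = 0.00091). Its wild-type signal was dim, above background on 3 of 4 wild-type arrays, so the size of the rise is uncertain. The sample channel averaged 8.01 in knockout cells and 6.74 in wild-type cells on the log2 scale. Dapk1 and Bnip3l were the 2 of the 58 genes that kept their calls under a slide block (adjusted p = 0.0276 and 0.0428).

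Tnfrsf1a, which encodes the TNF receptor 1 to which TRADD binds, rose by 0.70 (1.62-fold, adjusted p = 0.00965). Pidd1, whose product assembles the platform that activates caspase-2, rose by 0.46 (adjusted p = 0.0119) in a call that was lost without knockout array 2 (adjusted p = 0.052). Parp1, which encodes a DNA repair enzyme that caspases cleave, rose by 0.51 (adjusted p = 0.0205). Bcl2l15, which encodes a little-studied BCL-2 relative, rose by 1.01 (adjusted p = 0.0332). The calls of both depended on single arrays: Parp1 was lost without knockout array 2 or 3 or wild-type array 2, 3 or 4 (adjusted p from 0.0553 to 0.08), and Bcl2l15 without knockout array 1 or 2 or wild-type array 1, 2 or 4 (adjusted p from 0.0717 to 0.116). Fas, which encodes the death receptor of that name, read 1.82, 1.003 and 0.85 on the knockout arrays, against 1.89, 1.65, 2.17 and 1.96 on the wild-type arrays. Knockout arrays 2 and 3 were lower than all wild-type arrays and knockout array 1 was not, and the difference of -0.69 was not called (adjusted p = 0.101).

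**Figure D5:**
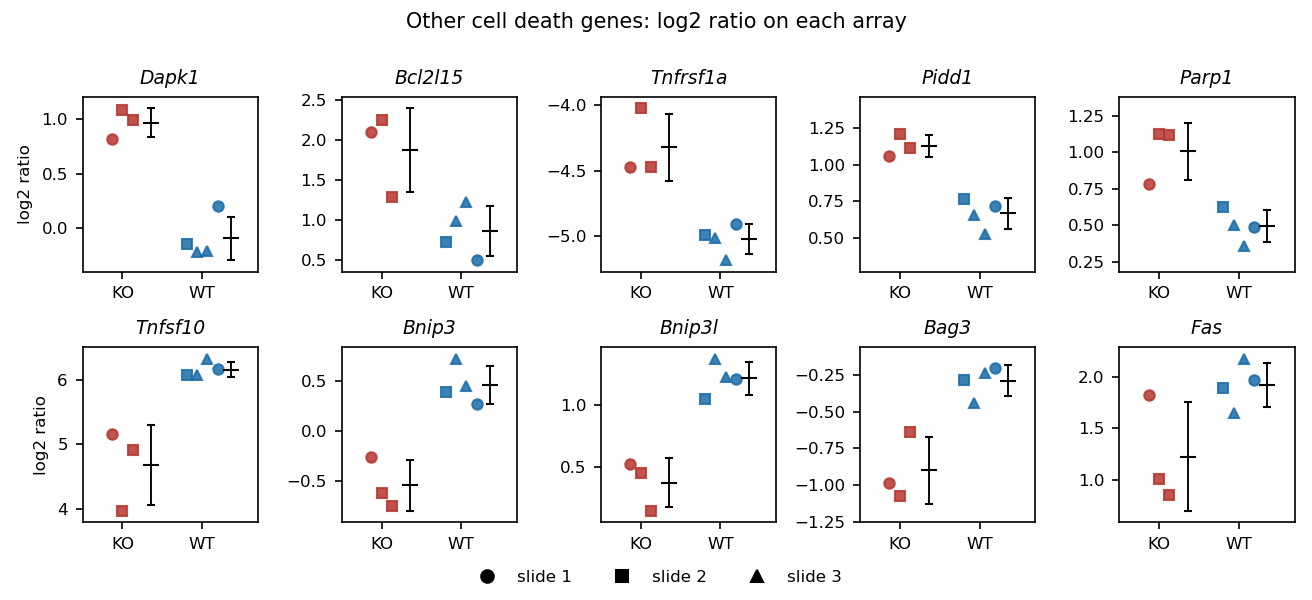
Log2 ratio of ILC2 sample over reference (y axis) on each of the 3 knockout (KO) and 4 wild-type (WT) arrays for 10 further cell death genes, with marker shape for the slide and black bars for the mean ± SD; each panel has its own range, and the axes do not start at 0. The groups are apart in the 9 called genes shown and overlap for Fas through knockout array 1.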

How the data were processed

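The authors deposited scanner output holding, for each spot, linear intensity values and the scanner software's log10 ratio of red over green; per the file headers it was written by Agilent Feature Extraction 11.0.1.1, and version 10.7.3.1 is given in the submitters' processing notes. The authors' deposited series value table holds the same ratio as log2 (differences up to 5e-04; column medians 0.163 to 0.254). Median signals were background-corrected with normexp (offset 50), and normalized by loess with control spots at weight 0, in limma 3.58.1 under R 4.3.3, and spots of a probe were averaged. Spots flagged as outliers or with non-uniform local background (2597) and control spots were left out. No member's probe was saturated, and no dyes were swapped.

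Probes were named by accession through RefSeq genes (GRCm38.p6): 26581 of 39429 had 1 gene and 12848 none. A gene was represented by its probe of highest mean red signal, and was tested if red lay well above background on 3 or more arrays and 2 or more values remained in each group. Groups were compared with lmFit and eBayes without a block. The fit was tested on simulated data, and 24 alternatives varied the correction, normalization, flags, filter, probe choice, variance model, slide or replicate block, arrays and minimum change. All members are described, with values per array for the called ones and a fixed set. Further pathway genes were named where called, except that some are not reported here. The members and the lists were chosen with earlier results of these data known. The sources name 1 pool of mice per sample, and the number of arrays limits the precision. Sequences were aligned with Biopython 1.88 and figures drawn with matplotlib 3.10.9.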

Additional observations from a re-analysis of the deposited data

Results flagged for a closer look

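Of the 36 measured members, 1 had a wild-type array far from the others in its group. Bid read -1.34 on wild-type array 3, and the gap to the nearest other wild-type array was 0.912 of the group's whole range, above Dixon's critical value for 4 samples. Chance alone flags about 5% of groups, and 36 wild-type groups were examined. Without wild-type array 3 the Bid difference was 0.35 (limma adjusted p = 0.0737). The knockout groups, with 3 arrays each, were not examined in this way.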

How the results depend on the processing

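Of the 36 members, 3 were called on the values reported. Under the alternatives the count was 1 with the scanner's log ratio, 1 with the series value table, 0 with slide as a fixed block (5 at an unadjusted limma p under 0.05, or 13.9% against 11.3% of all genes), 0 with a minimum log2 change of 0.5 (also 0 unadjusted, against 2.93% of all genes), 1 without the pair of knockout array 3 and wild-type array 4, and 1 to 4 when each array was left out in turn. The counts over all genes were 1336 with the scanner's log ratio, 1335 with the series value table, 478 with slide as a fixed block, 210 with the minimum change, 1103 without those 2 arrays and 1252 to 1888 with each array left out, against 1908. Deviations of same-numbered arrays correlated at 0.04, 0.24 and 0.02, so the numbers were not taken to pair the samples. With a replicate block, wild-type array 4 left out, 0 members (10 unadjusted, or 27.8% against 17.8% of all genes) and 1069 genes were called, fewer than without the block; fewer arrays and fewer residual degrees of freedom enter that fit. Casp1 was called under 21 of 24 alternatives, Bid under 11 and Pmaip1 under 6, and their differences stayed positive under all 24. Bmf was called under 4 and Bcl2a1d under 1. Of the 33 members not called, 13 changed sign under some alternative. When arrays were median-centred and loess was skipped, 55.5% of 1614 called genes were higher in the knockout, against 43.7% of 1908. The pro-survival median ran from -0.21 to -0.07 and the pro-death median from -0.02 to 0.09. The causes of these shifts were not tested.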

Other observations

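Birc5, which encodes survivin, an IAP relative that serves cell division, belongs to the 60 further genes and was singled out after its values were seen, because its probes disagree. The Birc5 probe with the highest sample-channel signal had a difference of 0.27 between knockout and wild-type ILC2s (limma p adjusted over all probes, 0.63), and its other 2 probes had differences of 0.64 and 0.62 (limma p adjusted over all probes, 0.0126 and 0.00993). Which transcripts the Birc5 probes read was not tested.

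Among the members, each array held the highest value of 1 to 8 genes and the lowest value of 2 to 8 genes. Knockout array 3 held the most of both, 8 highest (22.2% of members, 19.4% of all tested genes) and 8 lowest (22.2% of members, 21.3% of all tested genes).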
